A study of Mus musculus with 12 samples.

Results

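A set of 9 genes of serine synthesis and folate-dependent one-carbon metabolism was followed in mouse limb buds and osteoclast cultures in which Impdh2 was targeted for deletion. The enzyme it encodes acts in the making of guanine nucleotides. The 9 genes were named from general knowledge of the pathway, but the set was chosen with earlier results of these data known. Shares of the 9 set beside those of all genes are therefore descriptions. The genes were taken by symbol from the deposited count tables, which held 55900 gene identifiers in all. All 9 were present in both the forelimb and the culture tables, and all 9 passed the filter on low counts in both. RNA sequencing gave 12 libraries in 6 groups of 2. The forelimb groups were taken at embryonic day E12.5 from wild-type embryos (WT) and from Prx-cKO embryos, in which Impdh2 was deleted in limb mesenchymal progenitors. The culture groups came from marrow of WT mice and of LysM-cKO mice, in which the deletion was targeted to the myeloid lineage. Per the labels' protocols, all cultures were grown for 3 days with L929 supernatant equal to 20 ng/ml of M-CSF, a macrophage growth factor, then reseeded and stimulated with 40 ng/ml of RANKL, the cytokine that drives osteoclast formation. The cultures are titled R40D3 and R0D3. All 8 share 1 treatment label, so that reading these titles as RANKL doses is an inference, and they are used here as names. Prx and LysM act in a subset of the cells of a whole limb bud or a marrow culture, so undeleted cells remain in each sample, and in such bulk samples fewer cells of a type and less RNA per cell cannot be told apart. The labels do not say whether replicates were separate animals, so the p-values measure the spread between these samples, which may be technical.

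As background, the first enzymes of the pathway build serine from a glycolytic intermediate. Serine then gives its side-chain carbon to tetrahydrofolate, in the cytosol or in mitochondria, and the carbon leaves mitochondria largely as formate. Cytosolic formate is loaded back onto folate, and the product supplies carbons of the purine ring and of thymidylate. Rapidly dividing embryonic tissue is known for high use of this pathway, and several of the genes are known targets of the stress-response transcription factor ATF4.

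Serine is made by 3 of the genes. Phgdh, phosphoglycerate dehydrogenase, is the entry step (GRCm38 chromosome 3, 98313170 to 98339990, minus strand). Psat1 is the aminotransferase of the second step (chromosome 19, 15904678 to 15947337, minus strand), and Psph the phosphatase of the last (chromosome 5, 129765558 to 129787449, minus strand). The serine hydroxymethyltransferases split serine into glycine and a folate-bound carbon. Shmt1 is the cytosolic form (chromosome 11, 60788104 to 60811718, minus strand) and Shmt2 the mitochondrial form (chromosome 10, 127517123 to 127522444, minus strand). Mthfd2, the mitochondrial dehydrogenase and cyclohydrolase, oxidises that carbon (chromosome 6, 83305691 to 83325908, minus strand). Mthfd1l releases it as formate in mitochondria (chromosome 10, 3973118 to 4167081, plus strand), and Aldh1l2 oxidises it to carbon dioxide there (chromosome 10, 83487450 to 83534140, minus strand). Mthfd1, a cytosolic enzyme with 3 activities, takes formate back onto folate (chromosome 12, 76255298 to 76319803, plus strand). All 9 are protein-coding genes, and the counts per gene were used as deposited. The annotation over which reads were counted is not given in the sources used here.

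Promoter windows were read to see what the genes share in sequence, since most of them differed in the same direction in the limb. RefSeq windows on GRCm38.p6, running from 250 bases before to 50 bases after a transcription start, were matched for 8 of the 9 genes, in 9 windows. The windows of the 2 genes with the largest forelimb differences and of Mthfd1, the gene that passed the test in WT cultures, are printed 5′ to 3′ on the gene's strand, at chr3:98339920-98340219 (minus strand), chr6:83317555-83317854 (minus strand) and chr12:76254982-76255281 (plus strand). The Mthfd2 window lies inside the gene's GENCODE span. Capitals mark CCAAT and GGGCGG or their reverse complements.
Phgdh: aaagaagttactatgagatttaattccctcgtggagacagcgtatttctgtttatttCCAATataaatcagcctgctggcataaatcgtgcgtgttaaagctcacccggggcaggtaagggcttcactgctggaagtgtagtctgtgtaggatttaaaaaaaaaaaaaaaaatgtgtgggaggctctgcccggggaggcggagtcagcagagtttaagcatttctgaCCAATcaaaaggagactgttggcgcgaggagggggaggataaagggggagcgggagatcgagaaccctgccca
Mthfd2: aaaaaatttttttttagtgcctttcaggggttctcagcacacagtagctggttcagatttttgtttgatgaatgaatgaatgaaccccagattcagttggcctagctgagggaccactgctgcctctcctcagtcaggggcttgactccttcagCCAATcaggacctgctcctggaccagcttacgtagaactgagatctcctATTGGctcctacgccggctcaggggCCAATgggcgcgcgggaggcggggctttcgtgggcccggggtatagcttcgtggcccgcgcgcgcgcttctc
Mthfd1: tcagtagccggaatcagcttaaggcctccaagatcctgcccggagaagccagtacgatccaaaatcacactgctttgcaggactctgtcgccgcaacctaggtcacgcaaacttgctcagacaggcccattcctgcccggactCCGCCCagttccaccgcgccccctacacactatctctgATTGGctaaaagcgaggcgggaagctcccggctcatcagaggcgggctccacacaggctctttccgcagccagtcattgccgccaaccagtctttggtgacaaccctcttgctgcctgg
Searches on both strands covered 4 motifs, and matches of different motifs did not overlap in the printed windows. CCAAT and GGGCGG, the letters read by NF-Y and by Sp1-type factors, were added after expression values were seen. CCAAT was found in 6 of the 9 windows, against 37.4% of the 32851 RefSeq promoter windows of the same length. It lay in windows of 6 of the 8 genes (Phgdh, Psat1, Psph, Shmt1, Mthfd1 and Mthfd2). Its first bases lay at positions -193 and -23 in Phgdh, at -96, -47 and -22 in Mthfd2 and at -69 in Mthfd1, counted from the transcription start. GGGCGG was found in 5 of the 9 windows (5 of the 8 genes), against 35.7% of all windows. The ATF4-type element TGATGNAA was in 0 of the 9 windows (3.97% of all windows), and the E-box CACGTG also in 0 (7.15% of all windows). At shares this low, 0 in 9 windows was a likely outcome, so it cannot show that these genes lack such elements. These matches describe letters in a window and are not evidence of binding.

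Total counts ran from 28892215 to 69466572 in the 4 forelimb libraries and from 16009146 to 19221865 in the 8 culture libraries. Levels are normalised read counts (CPM), relative to library sizes scaled by TMM, and differences are log2 fold changes from the edgeR quasi-likelihood test. A gene was called at a Benjamini-Hochberg adjusted p under 0.05 over all 19987 forelimb or 14030 culture genes tested. Impdh2 measured 260 and 272 CPM in WT forelimbs and 170 and 199 CPM in Prx-cKO forelimbs, a difference that was not called (log2 fold change -0.53, edgeR adjusted p 0.443). In cultures it was at 22.3 to 28.2 CPM in the 4 WT libraries and 7.03 to 8.37 CPM in the 4 LysM-cKO libraries, and it fell at R40D3 (log2 fold change -1.73, edgeR adjusted p 0.0386) and at R0D3 (log2 fold change -1.81, edgeR adjusted p 0.0324). Both calls were lost when any 1 of the 4 compared libraries was left out, with edgeR adjusted p of 0.205 to 0.661 at R40D3 and 0.128 to 0.546 at R0D3, and also with the 4 compared libraries alone (0.578 and 0.408). At R40D3 the call was lost with library size alone too (0.0501). The log2 fold changes without 1 library stayed between -1.97 and -1.63. All 6 limb mesenchyme markers were detected in each forelimb library, and the macrophage list summed to 7058 to 8588 CPM in the cultures. The 10 osteoclast markers, among them Acp5 and Ctsk, summed to 12972 to 38489 CPM in R40D3 cultures and to 249 to 383 CPM in R0D3 cultures, where Calcr, Car2 and Oscar were at or under 3 counts. The R0D3 cultures, although labelled osteoclast, therefore lacked some defining osteoclast markers.

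In the forelimb, 7 of the 9 genes were higher in both Prx-cKO libraries than in both WT libraries, whereas Psph and Aldh1l2 overlapped. None was called (0 of 9), as was no gene of the whole table (0%). At an unadjusted p under 0.05, 7 of the 9 were higher, against 5.87% of all genes tested, and 2 of the 9 were called by DESeq2, against 0.934% of its genes. The median log2 fold change of the 9 was 0.77, beside -0.030 over all genes, and 8 of the 9 lay above 0, against 47.2% of all genes. Without Prx-cKO replicate 2 the count of 7 did not hold, and the median of the 9 was 0.56. Groups that do not overlap in the higher direction were found for 22.2% of all genes. Together the 9 genes took 625.5 and 725.3 CPM of the unscaled library totals in WT and 1005 and 1206 CPM in Prx-cKO.

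Phgdh, the first serine enzyme, was at 230 and 271 CPM in WT replicates 1 and 2 and reached 426 and 564 CPM in Prx-cKO. Both Prx-cKO libraries lay well above the WT libraries, for a log2 fold change of 0.98 with an SE of 0.20 (edgeR adjusted p 0.382). In DESeq2 this difference passed, with an adjusted p of 0.0405. Psat1 had 53.0 and 72.3 CPM in WT against 95.8 and 132 CPM in Prx-cKO, again with separate groups (log2 fold change 0.86, SE 0.24, edgeR adjusted p 0.441). Psph had 14.5 and 15.2 CPM in WT against 13.5 and 21.4 CPM in Prx-cKO. Its Prx-cKO libraries lay on either side of WT, and its log2 fold change of 0.24 with an SE of 0.28 (edgeR adjusted p 0.803) turned to -0.14 without Prx-cKO replicate 2. Psph thus lacked the separate groups seen in Phgdh and Psat1, a contrast between genes that was not tested. It shares 255 bases with Cct6a on the opposite strand, a gene with up to 27647 forelimb counts, beside as few as 387 for Psph. With the use of strand in counting not given, Psph values are uncertain.

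The serine-cleaving pair differed by similar amounts. Shmt1, the cytosolic form, had 62.8 and 60.4 CPM in WT against 82.4 and 94.7 CPM in Prx-cKO (log2 fold change 0.53, SE 0.15, edgeR adjusted p 0.443). Shmt2, the mitochondrial form, had 93.8 and 99.6 CPM in WT against 138 and 154 CPM in Prx-cKO (log2 fold change 0.59, SE 0.15, edgeR adjusted p 0.414). In both genes the replicates of a group were close and the groups apart, although neither was called.

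Mthfd2 had the smallest p of the 9 genes. It had 38.9 and 36.3 CPM in WT against 64.6 and 76.3 CPM in Prx-cKO, a log2 fold change of 0.91 (SE 0.17) that was not called by edgeR (unadjusted p 0.00247, adjusted p 0.340) and passed in DESeq2 (adjusted p 0.0280). Mthfd1l, which releases formate, had 20.1 and 28.2 CPM in WT against 36.5 and 46.2 CPM in Prx-cKO (log2 fold change 0.77, SE 0.24, edgeR adjusted p 0.445). The cytosolic Mthfd1 had 86.7 and 115 CPM in WT against 148 and 196 CPM in Prx-cKO (log2 fold change 0.77, SE 0.22, edgeR adjusted p 0.442). In Mthfd1, Mthfd1l, Phgdh, Psat1, Psph and Shmt2, 6 of the 9 genes, replicate 2 was the higher library in both genotypes.

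Aldh1l2 stood apart from the others in sign. It had 4.67 and 3.05 CPM in WT against 3.93 and 0.978 CPM in Prx-cKO, with overlapping groups and a log2 fold change of -0.74 with an SE of 0.68 (edgeR adjusted p 0.743). Without Prx-cKO replicate 2 the value was 0.042. It rested on 50 to 219 counts per forelimb library, and 1056 bases of its exons are shared with D10Wsu102e on the opposite strand, a gene with up to 5513 forelimb counts. The use of strand in counting is not given in the sources used here, so Aldh1l2 values are uncertain. Exons of Psph, Shmt1, Shmt2 and Mthfd1 also overlap genes on the other strand (Cct6a, Smcr8, Ndufa4l2 and Gm47525). Phgdh has near-identical processed copies, of which Gm7901 (98.7% identity over 1597 bases) had the most forelimb counts, 213 at most beside at least 9744 for Phgdh itself.

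**Figure D1:**
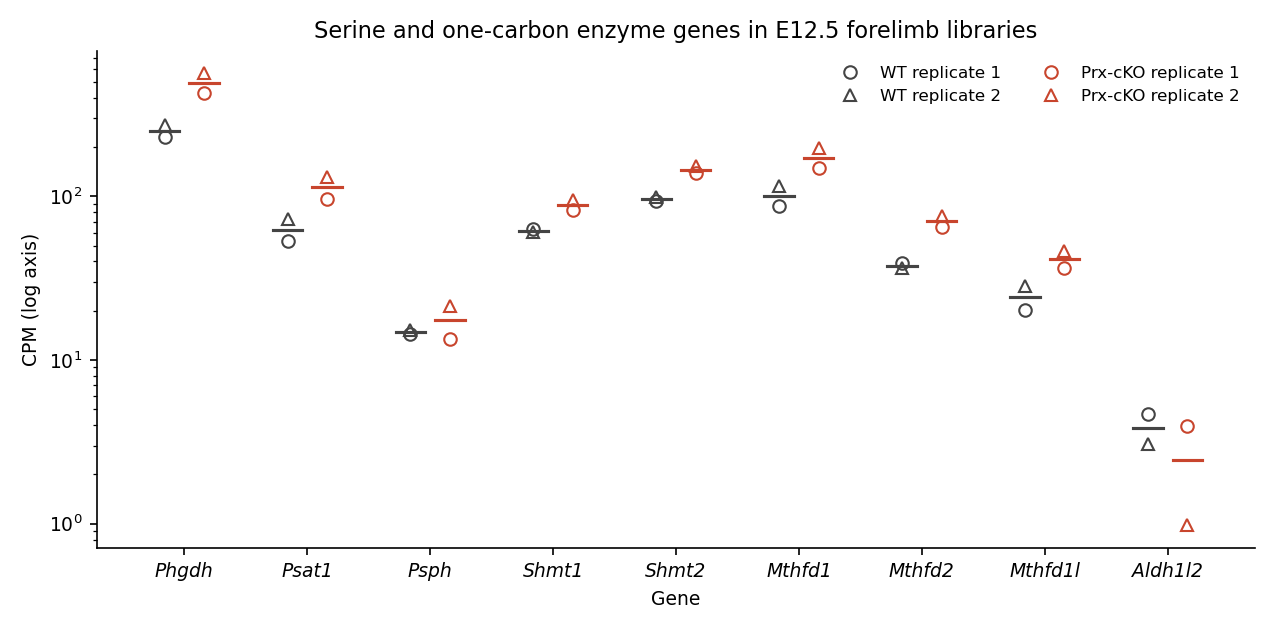
Level of each of the 9 genes in CPM (log axis) in the 4 forelimb libraries, with circles for replicate 1, triangles for replicate 2 and a line at the mean of each group of 2. Both Prx-cKO libraries lie above both WT libraries for 7 genes, for example 426 and 564 against 230 and 271 CPM for Phgdh, and the groups overlap for Psph and Aldh1l2.

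Other genes of the pathway were read in the forelimb from lists. Gart and Atic, the purine-ring enzymes that consume the carbon carried by formyl-folate, were both higher in each Prx-cKO library. Gart measured 124 and 160 CPM in WT and 183 and 233 CPM in Prx-cKO (log2 fold change 0.55, edgeR adjusted p 0.475). Atic measured 107 and 135 CPM in WT and 163 and 208 CPM in Prx-cKO (log2 fold change 0.62, edgeR adjusted p 0.457). Of 21 further folate, glycine and serine-transport genes, 0 were called, 17 had a log2 fold change above 0, against 47.2% of all genes, and the median was 0.26. At an unadjusted p under 0.05, Fpgs (folate polyglutamate synthase), Amt (a glycine cleavage subunit) and Tyms (thymidylate synthase) were higher and Ggh (the hydrolase that removes folate glutamates) was lower. The closest relative of Mthfd2, Mthfd2l, went the other way, at 51.9 and 45.2 CPM in WT and 38.7 and 38.9 CPM in Prx-cKO (log2 fold change -0.32, edgeR adjusted p 0.545). The mitochondrial folate carrier Slc25a32 measured 8.90 and 9.48 CPM in WT and 9.59 and 12.3 CPM in Prx-cKO, a log2 fold change of 0.26 (edgeR adjusted p 0.754).

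Atf4 itself measured 205 and 166 CPM in WT and 213 and 188 CPM in Prx-cKO, with overlapping groups (log2 fold change 0.12, edgeR adjusted p 0.850). Of 12 genes in a list of Atf4 and its targets outside the 9, 0 were called and 8 had a log2 fold change above 0, with a median of 0.17. Sesn2, a stress-induced regulator that is also a p53 target, measured 15.5 and 18.6 CPM in WT and 45.9 and 63.1 CPM in Prx-cKO (log2 fold change 1.68, edgeR adjusted p 0.332). Asns and Slc7a5 were higher and the cystine transporter gene Slc7a11 lower at an unadjusted p under 0.05.

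Markers of cell types differed between the forelimb groups beside these values. The 5 chondrogenic markers tested of 6 were all lower in both Prx-cKO libraries, with summed levels of 790 to 882 CPM in WT and 278 to 340 CPM in Prx-cKO, and Snorc was at or under 3 counts there. The 6 limb mesenchyme markers summed to 953 to 1040 CPM in WT and 762 to 817 CPM in Prx-cKO, although 3 of the 6 had a log2 fold change above 0 and 1 was higher in both Prx-cKO libraries. The 6 skeletal muscle markers summed to 298 to 306 CPM in WT and 392 to 830 CPM in Prx-cKO. All 6 endothelial markers were higher in both Prx-cKO libraries, with sums of 118 to 124 and 160 to 165 CPM. Of 7 macrophage markers 5 had a log2 fold change above 0 (median 0.70), and 4 were higher and 1 lower in both Prx-cKO libraries, while their sums were 84.2 to 87.2 CPM in WT and 69.2 to 81.8 CPM in Prx-cKO. Of 10 proliferation genes 8 had a log2 fold change above 0, with sums of 2573 to 3061 CPM in WT and 3088 to 3546 CPM in Prx-cKO. Of all 19987 genes tested, 4428 were higher and 4206 lower in both Prx-cKO libraries. None of the markers was called (edgeR quasi-likelihood). Their part in the higher one-carbon values was not tested.

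In the R40D3 cultures the same 9 genes all had log2 fold changes below 0 in LysM-cKO against WT, except that Shmt1 turned to 0.023 with library sizes alone, and none was called (0 of 9). Without WT R40D3 replicate 2, Psph turned to 0.088 and Mthfd2 to 0.12. The share of all genes called was 0.0143%. The median log2 fold change of the 9 was -0.25, beside -0.0077 over all genes. Values below 0 made up 51.5% of all genes. Of the 9 genes 5, Phgdh, Psat1, Mthfd1, Mthfd1l and Aldh1l2, were lower in both LysM-cKO libraries than in both WT libraries, against 18.9% of all genes. At an unadjusted p under 0.05 the count of lower genes was 1 of 9 (Aldh1l2), against 3.47% of all genes, and DESeq2 called 0 of 9, against 0.0729%. With the replicate number as a block, which the correlation of same-numbered culture libraries called for, 0 of 9 were called, against 0.214% of all genes, and 4 (Psat1, Shmt2, Mthfd1l and Aldh1l2) were lower at an unadjusted p under 0.05, against 9.68% of all genes.

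Aldh1l2 had the largest of these differences. It was at 8.15 and 18.9 CPM in WT replicates 1 and 2 and at 6.23 and 5.91 CPM in LysM-cKO (log2 fold change -1.14, SE 0.49, edgeR adjusted p 0.647). Phgdh had 10.9 and 22.8 CPM in WT against 10.4 and 8.25 CPM in LysM-cKO (log2 fold change -0.84, SE 0.47, edgeR adjusted p 0.669). In both genes WT replicate 2 held the high value, and WT replicate 1 lay just above the LysM-cKO libraries. Without WT R40D3 replicate 2 the log2 fold changes were -0.41 for Aldh1l2 and -0.22 for Phgdh. Within replicate 1 the log2 difference of Phgdh was -0.076, and within replicate 2 it was -1.45. For Aldh1l2 these were -0.38 and -1.66.

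Mthfd1l gave the tightest separation. It had 13.8 and 14.0 CPM in WT against 10.7 and 10.8 CPM in LysM-cKO, a log2 fold change of -0.37 with an SE of 0.19 (edgeR adjusted p 0.660). Its log2 difference was -0.37 in replicate 1 and -0.36 in replicate 2. Psat1 had 23.9 and 34.1 CPM in WT against 19.5 and 22.2 CPM in LysM-cKO (log2 fold change -0.47, SE 0.35, edgeR adjusted p 0.715). Mthfd1 had 51.5 and 50.5 CPM in WT against 42.6 and 49.7 CPM in LysM-cKO, where the higher LysM-cKO library lay less than 1 CPM under the lower WT library (log2 fold change -0.14, SE 0.13, edgeR adjusted p 0.771). Shmt1, Shmt2, Psph and Mthfd2 had overlapping groups, with log2 fold changes of -0.016, -0.25, -0.23 and -0.22.

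In the R0D3 cultures the genotypes overlapped for all 9 genes, while 17.5% of all genes were higher and 14.8% lower without overlap. None was called (0 of 9), against 0.0143% of all genes. At an unadjusted p under 0.05 the count was also 0 in edgeR, against 3.02% of all genes higher and 1.39% lower, and DESeq2 called 0, against 0.0283%. With the replicate block, 1 of 9 (Mthfd2) was higher at an unadjusted p under 0.05, against 6.53% of all genes. The log2 fold changes of 6 were below 0 and of 3 above 0, with a median of -0.12 beside 0.0084 over all genes, of which 48.1% were below 0. Without WT R0D3 replicate 2, 7 of the 9 lay above 0 and the median was 0.22. The largest in size were again Aldh1l2 and Phgdh. Aldh1l2 had 5.59 and 13.2 CPM in WT against 5.05 and 6.60 CPM in LysM-cKO (log2 fold change -0.68, SE 0.51, edgeR adjusted p 0.997). Phgdh had 7.80 and 19.7 CPM in WT against 8.44 and 9.88 CPM in LysM-cKO (log2 fold change -0.58, SE 0.48, edgeR adjusted p 0.997). WT replicate 2 was the highest of the 4 R0D3 libraries for both, as it was of the 4 R40D3 libraries, and without WT R0D3 replicate 2 the Phgdh value turned to 0.23 and that of Aldh1l2 to 0.057. Mthfd2 had the largest positive value, at 6.98 and 13.5 CPM in WT and 8.67 and 17.7 CPM in LysM-cKO (log2 fold change 0.36, SE 0.50, edgeR adjusted p 0.997).

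The 2 WT replicate 2 cultures were also the highest of their condition's 4 libraries for 6 of the 12 Atf4-list genes. These were Asns, Atf4, Chac1, Nupr1, Slc7a5 and Trib3, and the other 6 did not share this. It also held for 5 of the 21 folate, glycine and serine-transport genes and for neither Gart nor Atic. The share over all genes was not taken, so these counts cannot be read as particular to a list. Slc7a5, a large neutral amino acid transporter, was at 29.5 CPM (R40D3) and 22.0 CPM (R0D3) in the WT replicate 2 libraries. In the other 6 culture libraries it was at 8.67 to 14.0 CPM. Trib3, a pseudokinase induced by ATF4, was at 3.54 and 4.35 CPM there and at 1.05 to 2.28 CPM elsewhere. The summed level of the 12 Atf4-list genes was 465 CPM in WT R40D3 replicate 2 and 382 CPM in WT R0D3 replicate 2. In the other R40D3 libraries it was 349 to 392 CPM, and in the other R0D3 libraries 301 to 321 CPM. Over the 8 cultures and 10077 genes averaging 5 CPM or more, Aldh1l2 (r = 0.978 on log2 CPM), Slc7a5 (r = 0.924) and H13 (r = 0.898) had the pattern most like Phgdh. These are descriptions over 8 libraries of 4 groups that share 2 replicate numbers.

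Other markers moved between the culture libraries as well. The 8 stromal fibroblast markers summed to 432 and 507 CPM in the LysM-cKO replicate 2 libraries (R40D3 and R0D3) and to 1214 to 1615 CPM in the other 6, with Lum at or under 3 counts in 3 of the 4 groups. The 7 neutrophil and monocyte markers summed to 323 CPM (R40D3) and 245 CPM (R0D3) in WT replicate 1 and to 53.9 to 124 CPM in the other 6, with Ly6g at or under 3 counts. The 10 proliferation genes summed to 291 and 479 CPM in LysM-cKO and 256 and 278 CPM in WT at R40D3, and to 489 and 1002 CPM against 386 and 517 CPM at R0D3. The osteoclast markers were lower with the 9 genes at R40D3, where 10 of 10 had a log2 fold change below 0 (median -0.71). Of these markers 7 were lower in both LysM-cKO libraries, against 18.9% of all genes, and 0 were called. Their sums there were 12972 and 24585 CPM in LysM-cKO and 26039 and 38489 CPM in WT. At R0D3, 3 of the 10 lay above 0 (median -0.061). The part of these markers in the genotype values was not tested.

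**Figure D2:**
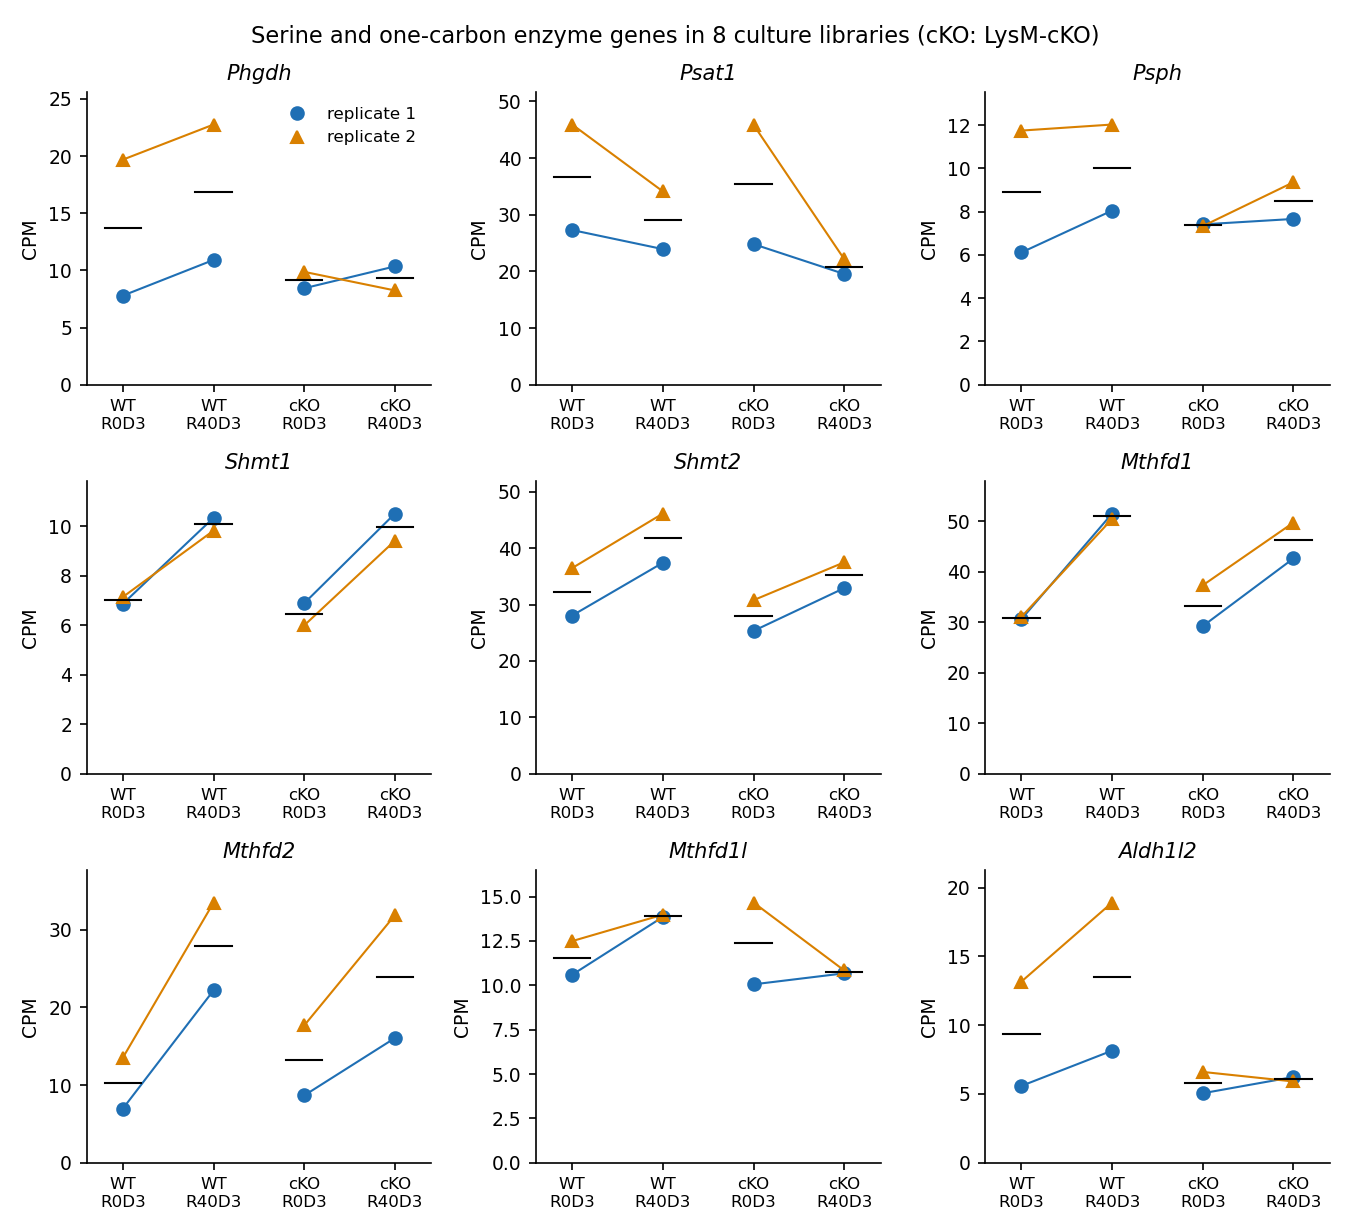
Level of each gene in CPM in the 8 culture libraries, 1 panel a gene, with blue circles for replicate 1, orange triangles for replicate 2, a black line at the mean of each group of 2 and coloured lines joining R0D3 to R40D3 of the same genotype and replicate number. Mthfd1, Mthfd2, Shmt1, Shmt2 and Psph are higher in R40D3 for every joined pair, by small amounts in some pairs of Psph. Psat1 is lower in every joined pair, and Phgdh and Aldh1l2 are highest in the WT replicate 2 libraries.

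The R40D3 and R0D3 cultures were compared within each genotype. In WT, 1 of the 9 genes was called higher in R40D3 (Mthfd1) and 0 lower, against 16.9% of all genes called in either direction. With the replicate block, 4 of 9 were called, all higher (Mthfd1, Mthfd2, Shmt1 and Shmt2), against 28.3% of all genes. R40D3 libraries lay wholly above R0D3 libraries for 5 genes, Mthfd1l in addition to those 4, against 32.9% of all genes. The median log2 fold change of the 9 was 0.37, beside 0.0098 over all genes. In LysM-cKO, 1 of 9 was called higher (Shmt1), against 10.1% of all genes, and with the block 4 were called higher (the same genes as in WT) and 1 lower (Psat1), against 21.3%. DESeq2, fitted without the low-count filter, called 2 of the 9 in WT, against 9.24% of its 24698 genes, and 0 in LysM-cKO, against 6.45%.

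Mthfd1 had 30.6 and 31.1 CPM in WT R0D3 against 51.5 and 50.5 CPM in WT R40D3, so that replicates nearly coincided. Its log2 fold change was 0.73 (SE 0.13, edgeR adjusted p 0.0108). The log2 differences were 0.75 in replicate 1 and 0.70 in replicate 2. In LysM-cKO it had 29.2 and 37.3 CPM in R0D3 against 42.6 and 49.7 CPM in R40D3 (log2 fold change 0.47, SE 0.13, edgeR adjusted p 0.0706, with the block 0.0140). All 4 WT libraries were needed for the WT call. Leaving out any one of them gave values of 0.68 to 0.74 with edgeR adjusted p of 0.0558 to 0.0847.

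Mthfd2 showed the widest range of the 9 genes between cultures. In WT it had 6.98 and 13.5 CPM in R0D3 against 22.2 and 33.5 CPM in R40D3, and in LysM-cKO 8.67 and 17.7 CPM in R0D3 against 16.1 and 31.9 CPM in R40D3. Replicate 2 was the higher library in each of the 4 groups, and the LysM-cKO groups overlapped. The WT log2 fold change was 1.44 (SE 0.48, edgeR adjusted p 0.0826), and with the block 1.48 (SE 0.14, edgeR adjusted p 0.000115). In LysM-cKO it was 0.86 (SE 0.47, edgeR adjusted p 0.323), and with the block 0.86 (SE 0.14, edgeR adjusted p 0.00261). The pairs gave log2 differences of 1.65 and 1.30 in WT and of 0.88 and 0.85 in LysM-cKO. Among the genes ranked, Ifi27 (r = 0.986), Fzr1 (r = 0.985) and Gmpr (r = 0.984) had the pattern most like Mthfd2 over the 8 cultures, all as descriptions.

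Both serine hydroxymethyltransferase genes were higher in R40D3. Shmt1 had 6.87 and 7.15 CPM in WT R0D3 against 10.3 and 9.83 CPM in WT R40D3 (log2 fold change 0.53, SE 0.16, edgeR adjusted p 0.0582, with the block 0.0320). In LysM-cKO it had 6.89 and 5.998 CPM in R0D3 against 10.5 and 9.42 CPM in R40D3, which was called (log2 fold change 0.63, SE 0.16, edgeR adjusted p 0.0462). That call was lost when any one of its 4 libraries was left out, with edgeR adjusted p of 0.0847 to 0.196. Shmt2 had 28.1 and 36.5 CPM in WT R0D3 against 37.4 and 46.1 CPM in WT R40D3 (log2 fold change 0.37, SE 0.17, edgeR adjusted p 0.198, with the block 0.0110). In LysM-cKO Shmt2 had 25.3 and 30.8 CPM in R0D3 against 32.9 and 37.5 CPM in R40D3 (log2 fold change 0.33, SE 0.17, edgeR adjusted p 0.313, with the block 0.0271). The 4 same-numbered pairs of Shmt2 differed by 0.28 to 0.41 on the log2 scale.

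Psat1 had the opposite sign. In WT it had 27.3 and 45.9 CPM in R0D3 against 23.9 and 34.1 CPM in R40D3, with overlapping groups (log2 fold change -0.34, SE 0.34, edgeR adjusted p 0.571). In LysM-cKO it had 24.8 and 45.9 CPM in R0D3 against 19.5 and 22.2 CPM in R40D3 (log2 fold change -0.76, SE 0.35, edgeR adjusted p 0.238), which fell with the block (log2 fold change -0.70, SE 0.15, edgeR adjusted p 0.0131). The other serine enzymes did not share that sign. Phgdh had log2 fold changes of 0.29 (WT) and 0.028 (LysM-cKO), and Psph of 0.17 and 0.20, with no call in any fit. Mthfd1l (0.27 and -0.20) and Aldh1l2 (0.52 and 0.063) were not called either.

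Whether the R40D3 difference depended on genotype was tested by the interaction term. None of the 9 genes was called (0 of 9, against 0% of all genes) in edgeR, with 0 of 9 at an unadjusted p under 0.05 (0.813% of all genes higher and 0.948% lower), and DESeq2 called 0, as of all its genes (0%). The largest in size was Mthfd2, whose log2 difference between R40D3 and R0D3 was lower by 0.58 in LysM-cKO (interaction -0.58, SE 0.67, edgeR adjusted p 1.000). With the block Mthfd2 had an unadjusted p of 0.0125 (interaction -0.62, SE 0.20, edgeR adjusted p 0.812). The calls of Mthfd1 in WT and of Shmt1 in LysM-cKO are thus not shown to differ between genotypes.

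**Figure D3:**
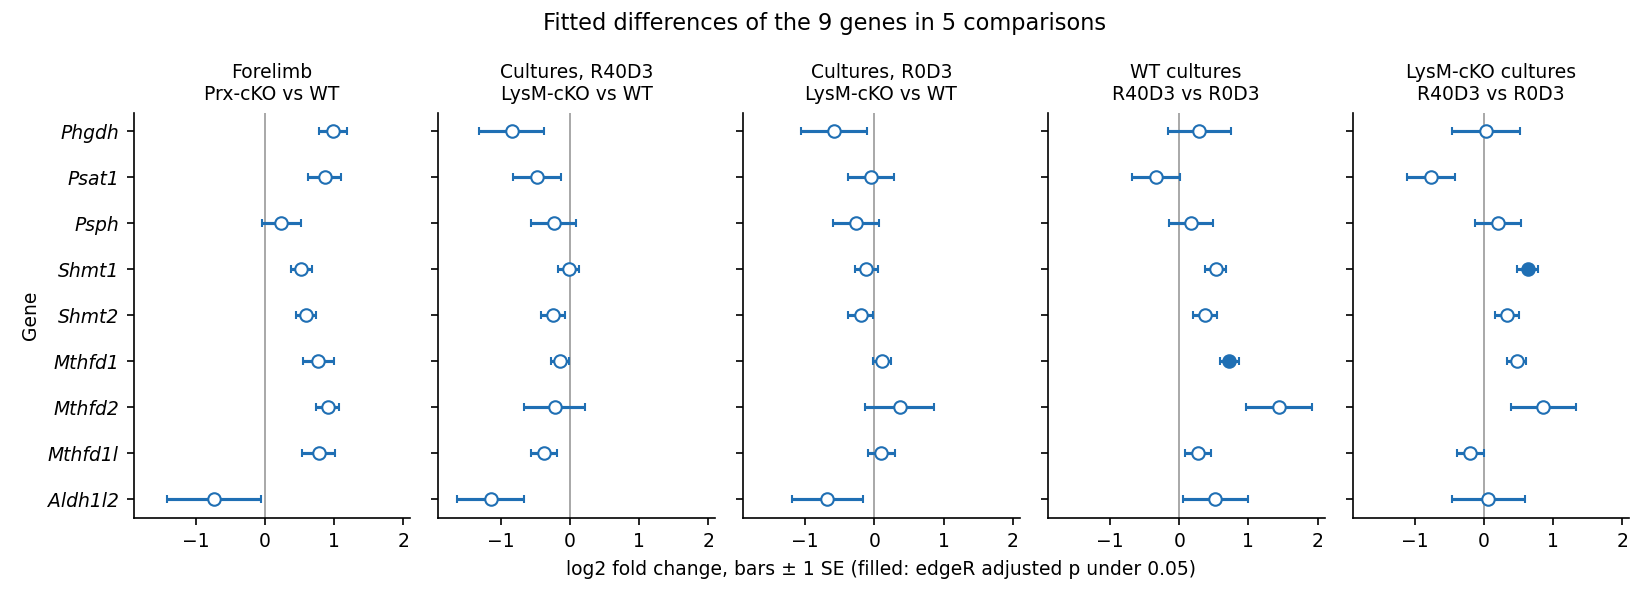
Log2 fold change of each gene (x axis, bars of 1 SE) in 5 comparisons, with filled points for an edgeR adjusted p under 0.05. Of 9 points 8 lie above 0 in the forelimb and 9 of 9 below 0 in R40D3 cultures (Shmt1 turned to 0.023 with library sizes alone), and the filled points are Mthfd1 (0.73) in WT and Shmt1 (0.63) in LysM-cKO for R40D3 against R0D3.

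Among the pathway genes outside the 9, Slc1a5, a transporter of glutamine and other neutral amino acids, rose in R40D3. It measured 26.8 and 29.3 CPM in WT R0D3 and 183 and 259 CPM in WT R40D3 (log2 fold change 2.98, edgeR adjusted p 0.0011), and the log2 fold change in LysM-cKO was 2.66 (edgeR adjusted p 0.0026). Dld, the shared dehydrogenase subunit of glycine cleavage and other complexes, rose from 80.7 and 80.5 CPM to 166 and 185 CPM in WT and by 0.86 on the log2 scale in LysM-cKO. Ggh fell by 0.72 on the log2 scale in WT. These were the called genes of the 21 neighbours, 3 in WT (against 16.9% of all genes) and 2 in LysM-cKO (against 10.1%), shares no higher than those of all genes. Gart and Atic had log2 fold changes of 0.11 and 0.17 in WT and were not called, and neither were Mthfd2l (0.029) and Slc25a32 (0.048). Atf4 measured 93.5 and 111 CPM in WT R0D3 and 126 and 174 CPM in WT R40D3 (log2 fold change 0.56, edgeR adjusted p 0.0996). Nupr1, a stress-induced chromatin protein gene on the Atf4 list, rose in both genotypes (log2 fold change 1.01 in WT and 1.06 in LysM-cKO), and Vldlr, the lipoprotein receptor gene on that list, rose in LysM-cKO (2.31). All 10 osteoclast markers rose in both genotypes. Of 7 macrophage markers, 2 fell in WT (Cd14 and Mertk) and 2 in LysM-cKO (Cd14 and Fcgr1), 0 rose, and Csf1r had values above 0 (0.25 and 0.31). Of 10 proliferation genes, Pcna fell in both genotypes and all 10 had values below 0. The part of these markers in the values of the 9 genes was not tested.

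Levels were compared between genes per kilobase of exon. In WT forelimbs Phgdh led at 101 ± 11.8 CPM per kilobase (SD, n = 2), followed by Shmt2 (31.1 ± 1.33), Mthfd1 (22.7 ± 4.54), Shmt1 (15.9 ± 0.428), Psat1 (14.7 ± 3.21), Mthfd2 (10.8 ± 0.539), Mthfd1l (5.44 ± 1.29), Psph (3.43 ± 0.114) and Aldh1l2 (0.515 ± 0.153). Of these neighbours Shmt1 and Psat1 overlapped between libraries and the others did not. In Prx-cKO the order differed in 1 place, with Psat1 (26.8 ± 6.01) above Shmt1 (22.8 ± 2.24), which also overlapped. Mthfd2 (20.2 ± 2.37) overlapped Shmt1 there as well. In the cultures Shmt2 had the highest group mean in all 4 groups, at 9.02 to 13.4 CPM per kilobase. The gene ranked second overlapped it in every culture group except WT R40D3. In LysM-cKO R0D3 replicate 2, Psat1 (10.8) lay above Shmt2 (9.90). By group means Mthfd1 was the second in R40D3 cultures of both genotypes and Psat1 the second in R0D3 cultures. Aldh1l2 had the lowest mean in every group, and it overlapped Psph in WT R40D3. Several other neighbours in the culture orders overlapped between libraries. Phgdh, the leading gene of the forelimb, was the fourth or the fifth in the cultures at 3.68 to 6.78 CPM per kilobase. The tables were normalised separately, so the orders within a table are the safer comparison.

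Ratios of paired enzymes within a library need no scaling between libraries. The ratio of Shmt2 to Shmt1 counts per kilobase was 1.87 and 2.06 in WT forelimbs and 2.09 and 2.02 in Prx-cKO forelimbs. In the 8 cultures it was 3.91 to 6.41, above all 4 forelimb libraries, with replicate 2 the higher in each group. The ratio of Mthfd1l to Mthfd1 was 0.232 to 0.247 over the 4 forelimb libraries. It was 0.344 to 0.403 in the 4 R0D3 cultures and 0.218 to 0.277 in the 4 R40D3 cultures, so that the R0D3 and R40D3 libraries did not overlap in either genotype. The ratio of Mthfd2 to Mthfd1 was 0.401 to 0.572 in the forelimb, 0.291 to 0.604 in R0D3 cultures and 0.480 to 0.846 in R40D3 cultures, with overlapping ranges. Within each genotype and replicate number it was higher in R40D3, at 0.549 against 0.291 and 0.846 against 0.555 in WT and at 0.480 against 0.378 and 0.817 against 0.604 in LysM-cKO. No test was made on the ratios.

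**Figure D4:**
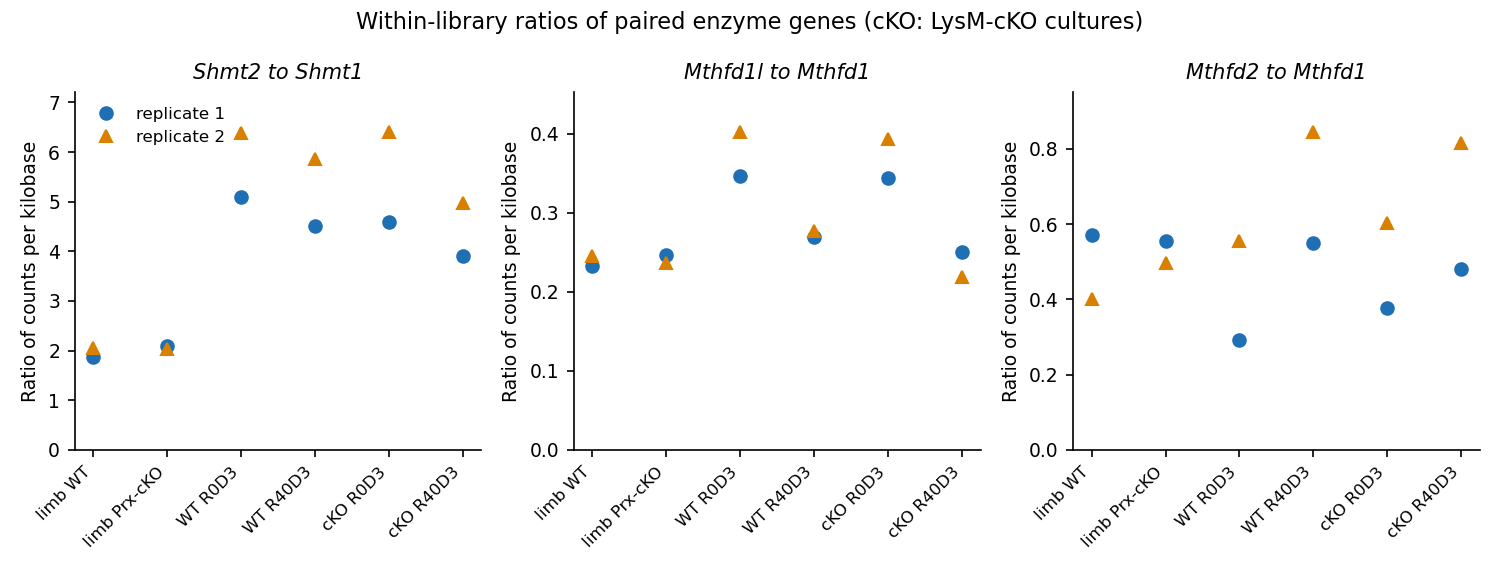
Ratio of counts per kilobase of exon for 3 pairs of genes in each of the 12 libraries, by group, with blue circles for replicate 1 and orange triangles for replicate 2. The Shmt2 to Shmt1 ratio is near 2 in the 4 forelimb libraries (1.87 to 2.09) and 3.91 to 6.41 in cultures, and the Mthfd1l to Mthfd1 ratio is 0.344 to 0.403 in R0D3 cultures and 0.218 to 0.277 in R40D3 cultures.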

How the data were processed

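The authors deposited whole-number read counts per Ensembl gene, in 1 table for the forelimb and 1 per replicate number for the cultures. Per the labels' protocols, TRIzol was used for extraction and a kit for mRNA libraries. FastQC 0.11.2, Trimmomatic 0.36, HISAT2 2.1.0, DESeq2 1.12.4 and GRCm38 are named in the submitters' processing notes. The counting tool, annotation and strand setting are not given in the sources used here. Symbols, positions and exon lengths came from GENCODE M21 on GRCm38 (99.6% of forelimb and 99.5% of culture identifiers matched).

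The members, gene lists and motifs were chosen with earlier results of these data known. All 9 members were named in every comparison. List genes were named when they passed the test over all genes, or as fixed comparators (Mthfd2l, Aldh1l1, Atf4, Slc25a32). List genes named at an unadjusted p, and Slc7a5 and Trib3 in the cultures, were chosen after their values were seen.

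Counts as deposited were filtered with filterByExpr, scaled by TMM and fitted by the edgeR 4.0.16 quasi-likelihood test (R 4.3.3, legacy = FALSE), two-sided, with Benjamini-Hochberg adjustment. A fit held the 4 forelimb libraries and another all 8 cultures. Dividing the size of a log2 fold change by the root of its F statistic gave its SE. Correlations across libraries used log2 CPM with a prior count of 2. Alternatives were RLE scaling, library size alone, no filter, DESeq2 1.42.0, the older quasi-likelihood method, replicate blocks, the 4 compared libraries alone and leaving out each library. Leaving out both WT replicate 2 cultures was added after seeing the data. The fits were tested on simulated data with 200 genes changed, in equal numbers by 2-fold and 4-fold. The forelimb fit called 12 of the 2-fold and 56 of the 4-fold changes, with 0 false calls. The culture fit for LysM-cKO against WT at R40D3 called 61 and 87, with 8 false calls. Most 2-fold changes were thus missed in the simulated forelimb data.

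In each of the 6 groups the replicates differed beyond sampling noise. Deviations from group means of same-numbered culture libraries correlated in all 6 pairs of groups (r 0.343 to 0.609), and each replicate number has its own deposited table. Numbers were therefore taken to pair the cultures. The main fit and the fits without 1 library held no block, and blocked values are printed where they change a call.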

Additional observations from a re-analysis of the deposited data

How the results depend on the processing

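With 2 libraries a group, the low counts of Aldh1l2 and Psph and no statement on strand, the precision of these values is limited, and counting error alone understates it. Of the single-gene values under alternatives other than leaving out 1 library, 388 kept their direction and side of the threshold, 12 newly passed, 6 no longer passed and 8 changed sign. The cause of these changes was not tested.

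For R40D3 against R0D3 in LysM-cKO, the 1 member called became 0 with RLE scaling, without the filter, in DESeq2 and with the 4 compared libraries. It became 2 with library size alone, where 1551 of all 14030 genes were called. With the replicate block it became 5, against 21.3% of all genes. In WT the 1 member called became 2 with the 4 compared libraries, where 2796 of all 13521 genes were called. It was also 2 in DESeq2 (9.24% of its genes) and 4 with the replicate block (28.3% of all genes). The loss of the Mthfd1 and Shmt1 calls when any one library was left out is given with the results. In the forelimb DESeq2 called 2 members, and leaving out 1 library gave 0. Genes called in R40D3 against R0D3 numbered 1422 in LysM-cKO (533 with the 4 compared libraries, 434 without both WT replicate 2 cultures, 2982 with the block, 399 to 1317 without 1 library) and 2366 in WT (31 without both WT replicate 2 cultures, 3977 with the block, 689 to 1699 without 1 library). The 2 genes called between genotypes at R40D3 became 0 with the 4 compared libraries, with library size alone, without both WT replicate 2 cultures or without 1 library, 18 in DESeq2 and 30 with the block. At R0D3 the 2 became 0 with the 4 compared libraries, without both WT replicate 2 cultures or without 1 library, and 7 in DESeq2. In the forelimb 0 genes were called, against 301 in DESeq2, 1 with the replicate numbers crossed, 604 without WT replicate 1 and 105 without WT replicate 2.

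Forelimb numbers were not taken as pairs (r 0.261 for the single pair of groups); the replicate block called 0 genes and 0 members there. In the cultures the block changed no other call of a member than those given with the results.

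Without both WT replicate 2 cultures, the LysM-cKO differences changed sign at R0D3 to 0.22 (Phgdh), 0.36 (Psat1), 0.26 (Psph) and 0.050 (Aldh1l2), at R40D3 to 0.089 (Psph) and 0.12 (Mthfd2), and the Psph interaction to -0.17. With library size alone Shmt1 at R40D3 was 0.023. The median Mthfd1l to Mthfd1 ratio of the 12 libraries, 0.260, was 0.228 with the longest transcript's length.

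Leaving out 1 library at a time changed the sign of these values, given as ranges. In LysM-cKO against WT at R0D3, Phgdh -1.10 to 0.23, Psat1 -0.56 to 0.37, Psph -0.67 to 0.27, Mthfd1 -0.080 to 0.25, Mthfd2 -0.24 to 0.91, Mthfd1l -0.20 to 0.32, Aldh1l2 -1.18 to 0.057. In R40D3 against R0D3 in LysM-cKO, Phgdh -0.15 to 0.15, Mthfd1l -0.45 to 0.10, Aldh1l2 -0.13 to 0.27. In R40D3 against R0D3 in WT, Phgdh -0.37 to 1.10, Psat1 -0.66 to 0.086, Psph -0.23 to 0.71, Aldh1l2 -0.24 to 1.26. In the interaction, Phgdh -1.07 to 0.38, Psat1 -0.85 to 0.087, Psph -0.50 to 0.44, Shmt2 -0.25 to 0.14, Mthfd2 -1.15 to 0.020, Aldh1l2 -1.20 to 0.28. In LysM-cKO against WT at R40D3, Psph -0.51 to 0.088, Shmt1 -0.076 to 0.042, Mthfd2 -0.81 to 0.22. In the forelimb comparison, Psph -0.14 to 0.54, Aldh1l2 -1.95 to 0.042.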

Other observations

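Some of the 21 folate, glycine and serine-transport genes differed in level between the tissues. The tables were normalised separately and the tissues were not tested against each other. Others of the 21 overlapped, for example Slc46a1 (8.27 to 14.8 CPM in cultures and 9.04 to 10.3 CPM in the forelimb). Dld overlapped as well (80.5 to 185 CPM in cultures and 120 to 151 CPM in the forelimb). The genes that follow did not overlap. Aldh1l1, the cytosolic counterpart of Aldh1l2, was at 33.9 to 39.7 CPM in the 8 cultures and at 0.960 to 2.05 CPM in the 4 forelimb libraries. Ggh, which removes glutamates from folate, was at 44.4 to 90.4 CPM in cultures and 9.35 to 17.1 CPM in the forelimb. Amt, a subunit of the glycine cleavage system, was at 0.808 to 1.80 CPM in cultures and 26.6 to 42.9 CPM in the forelimb. Mthfd2l was at 6.96 to 9.48 CPM in cultures and 38.7 to 51.9 CPM in the forelimb, and Slc25a32 at 19.5 to 23.4 CPM in cultures and 8.90 to 12.3 CPM in the forelimb.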
